A study of Mus musculus with 30 samples.

Results

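The genes described here encode 8 enzymes that handle NAD precursors, uridine, threonine, glycine and the methyl donor S-adenosylmethionine: Qprt, Nampt, Nnmt, Upp1, Tdh, Gldc, Gcat and Mat2a. They were chosen on measured values: Qprt and Upp1 were among the genes with the largest differences of induced and embryonic stem cells from somatic cells in these same data, and the list was built around them. Probes named for 6 of the 8 genes were found by symbol or gene ID, among 23629 genes and unnamed probes of which 19082 carried a gene symbol. Tdh, the threonine dehydrogenase, and Mat2a, the methionine adenosyltransferase, had no probe under either and have no values here.

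Messenger RNA was measured in 30 mouse samples with a 1-colour oligonucleotide array in a study of chemical reprogramming. The somatic group held 7 untreated cultures: 4 of mouse embryonic fibroblasts (MEF1, MEF2, MEF3 and a wild-type culture, WT MEF) and 1 each of neonatal fibroblasts (MNF), adult lung fibroblasts (MAF) and adipose-derived stem cells (ADSC). The chemically induced pluripotent stem cell (CiPSC) group held 11 lines made with small molecules alone, each line 1 sample. Their mixtures are labelled by letter codes that differed between lines, from FC6+Z (CiPS45) and VC6F+Z (CiPS50) to VC6TFMPS+Z (ADSC CiPS2, CiPS WT1 and CiPS WT2) and VCT6FMDBR+Z (MNF CiPS1).

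Induced pluripotent lines made from MEF with the 4 factors coded OSKM gave 2 samples, OSKM iPS1 and OSKM iPS2. Lines made with 3 factors (SKM) and the treatment coded F, forskolin, gave 2 samples, SKM-FSK1 and SKM-FSK2. Embryonic stem cells (ESC) gave 5 untreated samples, ESC2 of the line TT2 and the others of the line R1. MEF under treatment were sampled once each at day 12 (VC6TF) and at days 20 and 32 (VC6TF+Z). A CiPSC control line (VC6TF+Z) accompanied them. All ESC, iPSC and CiPSC were grown on feeder layers of mitotically inactivated MEF, whereas the somatic cells were grown without feeders in serum medium. Strain, sex and genotype other than wild type for WT MEF and the 2 CiPS WT lines were not given in the sources used here. Where an embryonic or adult stage is given it is that of the starting cells.

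Cells make NAD, the cofactor of redox reactions and the substrate of sirtuins and PARP enzymes, either from tryptophan by way of quinolinic acid or by salvage of nicotinamide. Qprt, quinolinate phosphoribosyltransferase, serves the first route, Nampt, nicotinamide phosphoribosyltransferase, is the rate-limiting enzyme of the second, and Nnmt, nicotinamide N-methyltransferase, removes nicotinamide by transferring a methyl group to it from S-adenosylmethionine. Upp1, uridine phosphorylase, splits uridine into uracil and ribose-1-phosphate. Mouse ESC are known for breaking down threonine in mitochondria through Tdh and Gcat, glycine C-acetyltransferase, to glycine and acetyl-CoA, and Gldc, the decarboxylase of the glycine cleavage system, passes a carbon of glycine to folate for nucleotide and methionine synthesis.

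The samples came in 5 sets that the authors normalized separately, and sample medians over all probes were nearly equal within a set but differed between sets, from 109.5 to 110.04 in set 5 to 356.7 to 358.8 in set 2. In set 5, which held MEF3, the treated MEF, the CiPSC control line and ESC5, 18.5 to 18.7% of probes read under 16, against at most 0.847% in the other sets. The pluripotent cell markers (7 of 8 with a probe, 4 to 7 measured in each set) summed to 23874 to 158886 in the CiPSC, iPSC and ESC samples and to 171 to 1229 in the somatic samples. The fibroblast markers summed to 37573 to 262823 in the somatic samples. ADSC CiPS2 is named for adipose-derived cells in its title and for adult lung fibroblasts in its source label. MEF3 stood apart from the other somatic samples for several of the genes below. The fibroblast markers measured in set 3 (7 of 10) summed to 13673 in CiPS WT1 and 16132 in CiPS WT2, against 1152 in ESC3 and 110331 in WT MEF.

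The promoters of Qprt and Upp1, the pair with the largest differences, and of Nampt and Gcat, from the same NAD and threonine routes, are shown for their unlike content of CpG, the dinucleotide in which DNA is methylated. They are taken from RefSeq on GRCm38.p6 and run from 250 bases before to 50 after the annotated start, 5′ to 3′ on the strand of the gene, with each CG in capitals. Qprt lies on the minus strand with its promoter at chr7:127121980-127122279, Upp1 on the plus strand with the first of 3 annotated starts at chr11:9117758-9118057, Nampt on the plus strand at chr12:32820085-32820384 and Gcat on the plus strand at chr15:79030624-79030923.
Qprt: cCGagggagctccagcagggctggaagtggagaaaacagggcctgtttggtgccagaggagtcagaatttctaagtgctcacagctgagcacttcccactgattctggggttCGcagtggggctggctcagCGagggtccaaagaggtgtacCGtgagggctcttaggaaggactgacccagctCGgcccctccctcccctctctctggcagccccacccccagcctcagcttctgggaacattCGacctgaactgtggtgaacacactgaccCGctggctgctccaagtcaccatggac
Upp1: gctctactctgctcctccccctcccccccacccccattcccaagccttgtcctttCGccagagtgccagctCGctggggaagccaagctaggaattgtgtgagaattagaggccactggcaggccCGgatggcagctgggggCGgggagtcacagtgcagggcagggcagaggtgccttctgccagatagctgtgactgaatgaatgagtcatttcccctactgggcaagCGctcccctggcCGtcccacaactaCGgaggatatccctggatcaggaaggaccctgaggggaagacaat
Nampt: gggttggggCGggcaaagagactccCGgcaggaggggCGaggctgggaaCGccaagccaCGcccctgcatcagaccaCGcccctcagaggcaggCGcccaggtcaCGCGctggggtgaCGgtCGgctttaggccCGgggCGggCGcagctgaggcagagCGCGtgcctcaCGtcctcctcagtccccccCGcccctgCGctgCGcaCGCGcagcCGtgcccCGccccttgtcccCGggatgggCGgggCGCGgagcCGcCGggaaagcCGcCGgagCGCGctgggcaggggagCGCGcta
Gcat: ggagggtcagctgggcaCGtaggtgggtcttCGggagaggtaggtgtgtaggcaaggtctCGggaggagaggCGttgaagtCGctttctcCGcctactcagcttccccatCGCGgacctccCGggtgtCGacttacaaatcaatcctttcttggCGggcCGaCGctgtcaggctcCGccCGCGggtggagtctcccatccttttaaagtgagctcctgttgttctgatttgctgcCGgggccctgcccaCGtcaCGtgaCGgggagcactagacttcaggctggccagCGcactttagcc

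The Qprt window held 7 CpG and the first Upp1 window also 7, which is the median of 32851 mouse promoter windows (quartiles 3 and 20). The later Upp1 starts held 8 and 13, the Gldc window (chr19:30175392-30175691) 10, the Gcat window 21, the Mat2a window (chr6:72439507-72439806) 34 and the Nampt window 36. Qprt and Upp1, at its first start, thus had windows of ordinary CpG content, and those of Nampt and Gcat lay above the upper quartile. Methylation was not measured in these files.

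These windows were searched on both strands for 7 motifs, none of which contains another. AAGGTCA, the Esrrb site, occurs in 4.72% of all promoter windows. The octamer ATGCAAAT occurs in 1.74%, the Sox site ACAATGG in 3.66% and the GC box GGGCGGGG in 17.6%. The E-box CACGTG occurs in 7.15%, the AP-1 site TGANTCA in 7.81% and the TATA box TATAAA in 13.6%. Each match is a description of the sequence, not a binding site. The Qprt window held none of the 7. The first Upp1 window held a GC box whose first base lies 111 bases before the start and an AP-1 site 45 bases before it. Nampt held 3 GC boxes, at 64, 32 and 10 bases before the start, Gldc 1 GC box at 88 bases before it, Gcat an E-box from base 3 of the transcript, and Mat2a a TATA box at 32 bases before the start. Nnmt and Tdh were not matched in the promoter table.

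All intensities are on the authors' linear scale, and levels are compared only within a probe. Since the sets were normalized separately, the order of samples from different sets is that of the deposited values only, and differences are taken within sets. Differences are on the log2 scale, where 1 unit is a 2-fold change, fitted with limma with group and set as terms. The differences of CiPSC and of ESC from somatic samples chose Qprt and Upp1, so for all 6 genes they are given as descriptions without a test, and Qprt and Upp1 are not tested in any comparison.

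Qprt (chromosome 7, 127107770 to 127122029 on GRCm38.p6) was low in somatic cells and high in every pluripotent line. Its intensity was 36.2 in WT MEF, 67.9 in MAF, 77.5 in ADSC, 81.3 in MEF2, 82.7 in MNF, 99.0 in MEF1 and 741 in MEF3. In the 11 CiPSC lines it ran from 10312 (MAF CiPS3) through a median of 17274 to 22138 (CiPS21). The ESC samples read 14117, 19385, 11369, 25554 and 15754 in sets 1 to 5. The OSKM lines read 26120 and 24656 and the SKM-FSK lines 22178 and 27698. The groups did not overlap, and the somatic sample nearest to the ESC of its set was MEF3, at -4.41 on the log2 scale, against -7.16 or lower in the other 6.

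Against the culture of the same source in its set, where there was one, each CiPSC line was higher by 7.15 (MNF CiPS1) to 8.86 (CiPS WT2) on the log2 scale, except the control line against MEF3, at 4.54. The fitted difference of Qprt was 7.45 ± 0.34 (SE; 11 CiPSC and 7 somatic samples), and 7.90 without MEF3. For ESC it was 7.30 ± 0.40 (5 and 7 samples), for OSKM iPSC 8.08 ± 0.55 (2 and 7) and for SKM-FSK iPSC 7.75 ± 0.70 (2 and 7). The pluripotent cell markers summed to 1229 in MEF3, 105375 in ESC5 and 2758 in the day 32 sample of the same set, in which Qprt read 119. Not every marker followed these sums. Nanog read 762.5 in MEF3 and 89.4 at day 32, while Esrrb and Tdgf1 read 1125 and 1032 at day 32. Pou5f1 read 61 in MEF3, 389 at day 32, 140.5 in ESC5 and 24.2 in the control line. Tfcp2l1 stayed between 14.6 and 19.5 in all samples of set 5. The fibroblast markers summed to 45303 in MEF3 and to 128017 to 188892 in the treated MEF, although Pdgfrb was lower there. Their mean log2 intensity was 10.3 in MEF3 and 10.0 to 12.1 in the treated MEF. The macrophage markers (5 of 6 measured) summed to 6640 in MEF3 and to 661 to 2176 in the treated MEF. Cd68 made up 2011 of the highest of these treated sums, at day 32. In set 4, normalized separately, the same 5 macrophage markers summed to 11398 in MEF2, where Qprt read 81.3. The part of other cells in the MEF3 value of Qprt was not tested. In a bulk sample fewer cells of a type and less RNA per cell cannot be told apart.

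Nampt (chromosome 12, 32820335 to 32853369) was present in somatic cells and was moderately higher in pluripotent ones. The somatic samples read 124 (MEF3), 505 (MNF), 654 (WT MEF), 1146 (MEF1), 1886 (ADSC), 2217 (MAF) and 2336 (MEF2). The CiPSC lines ran from 1593 (CiPS WT2) through a median of 2693 to 5893 (CiPS45), and the ESC samples read 1680 (ESC1), 4908 (ESC2), 1469 (ESC3), 6146 (ESC4) and 4079 (ESC5). The ranges overlapped across sets, and in set 2 the MAF culture at 2217 lay just above MNF CiPS1 at 2194.

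The OSKM lines were at 1965 and 4494 for Nampt, 0.23 and -0.13 from the ESC of their sets on the log2 scale. Both SKM-FSK lines were high, at 14545 and 15043. They lay 1.24 and 1.29 above ESC4 of their own set and 2.64 and 2.69 above MEF2 on the log2 scale. The next highest induced line relative to the ESC of its set was CiPS34, at 1.18. The second probe of Nampt gave 4610 and 5499 in the SKM-FSK lines, 1972 in ESC4 and 773 in MEF2. The order within their set was thus the same. By that probe CiPS34 read 1014.5 against 278 in ESC1, a larger log2 difference than that of either SKM-FSK line from ESC4. The rank of the SKM-FSK lines above CiPS34 therefore held by the main probe only.

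Nnmt (chromosome 9, 48538002 to 48607655) ran the other way and was the only one of the 6 genes that was lower in pluripotent cells. Somatic cultures read 1131 (MEF3), 2184 (WT MEF), 3765 (MEF1), 4319 (MEF2), 5760.1 (MNF), 6181 (MAF) and 6582 (ADSC). The ESC samples read 164, 254, 30.5, 103 and 741 in sets 1 to 5, the OSKM lines 99.9 and 117, and the SKM-FSK lines 237 and 197. Among the CiPSC lines Nnmt ran from 89.8 (CiPS21) through a median of 208 to 1198 (MNF CiPS7). Within each set all CiPSC lines were below the somatic samples.

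The spread of Nnmt among CiPSC lines was wide. Relative to the ESC of the set, its log2 difference ran from -1.41 (MAF CiPS3) to 2.87 (MNF CiPS7), with an SD of 1.66 (n = 11) that was larger than that of 98.2% of 10809 genes (median SD 0.56). MNF CiPS7 at 1198 and CiPS50 at 758 lay 2.87 and 2.21 above ESC1, and ADSC CiPS2 at 1029 lay 2.02 above ESC2. CiPS WT1 and CiPS WT2 read 174 and 186, which was 2.51 and 2.61 above ESC3. ESC3 itself read 30.5, the lowest of the ESC samples, and both lines were under the CiPSC median of 208. The fibroblast markers stood higher in that pair of lines than in ESC3, as given above. In MNF CiPS7 and CiPS50 the 1 fibroblast marker measured in set 1, Thy1, read 293 and 509 against 266 in ESC1 and 42864 in MEF1. In ADSC CiPS2 and MAF CiPS3 it read 588 and 1671 against 187 in ESC2, although MAF CiPS3 had the lowest Nnmt of set 2, at 95.5. The other fibroblast markers measured in set 2 differed less: Dcn read 63.2 and 293 in these lines against 43.8 in ESC2. Twist2 read 114 and 174 against 117, so in ADSC CiPS2 it was not above ESC2. The part of feeder or residual fibroblast RNA in these values was not tested.

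Upp1 (chromosome 11, 9118008 to 9136170) rivalled Qprt in the size of its difference but not in its uniformity across somatic cells. It read 27.8 in WT MEF, 54.8 in MEF2, 57.4 in MNF, 61.8 in MEF1 and 139 in MEF3, but 836 in ADSC and 5073 in MAF. In set 2 the 2 cultures from adult animals, MAF and ADSC, thus stood above the neonatal one, MNF, with 1 sample each and no test. The macrophage markers measured in that set (2 of 6, Cd68 and C1qc) summed to 7103 in MAF, 610 in ADSC and 290 in MNF. The adipose markers (4 of 6) summed to 4972 in MAF, 5140 in ADSC and 46038 in MNF. Lpl alone read 4414, 4815 and 45641 in that order, so the higher MNF sum is that of Lpl. Adipoq read 34.3, 33 and 50.8, and Plin1 84.9, 99 and 96.4. Cebpa read 439, 193 and 250, so in MNF it was below MAF. In set 3, normalized separately, Cd68 and C1qc summed to 14991 in WT MEF, where Upp1 read 27.8. The part of macrophages or adipose cells in the Upp1 values was not tested. CiPSC lines ran from 7533 (CiPS WT2) through a median of 13924 to 31851 (MAF CiPS3). The ESC samples read 25277, 24263, 9829, 30883 and 17811, the OSKM lines 20120.4 and 41899, and the SKM-FSK lines 33263 and 35164. The somatic and pluripotent ranges did not overlap.

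The line-by-source differences of Upp1 repeat the split between the source cultures, since they subtract those same values. MNF CiPS1 lay 8.83 above MNF, whereas ADSC CiPS2 lay 4.06 above ADSC and MAF CiPS3 only 2.65 above MAF. The lines themselves read 26076, 13924 and 31851 in that order. ADSC CiPS2 was paired by its title, although its source label names adult lung fibroblasts. The fitted difference was 6.61 ± 0.65 for CiPSC and 7.30 ± 0.76 for ESC (SE). It was 7.15 ± 1.06 for OSKM iPSC and 8.36 ± 1.33 for SKM-FSK iPSC.

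The second probe of Upp1 did not give the same picture in every sample. It read 32.1 to 130 in the 7 somatic samples, with MAF at 104 and ADSC at 53.7, and from 82.0 (MAF CiPS3) to 2349 (CiPS34) in CiPSC. The ratio of the main to the other probe was 0.56 in WT MEF, 49.0 in MAF and 388 in MAF CiPS3, with a median of 10.9 over 30 samples. MAF CiPS3 thus had the highest CiPSC value by one probe and the lowest by the other, where it lay below MAF. With the other probe the fitted differences were 3.81 for CiPSC, 4.45 for ESC, 2.84 for OSKM iPSC and 5.43 for SKM-FSK iPSC, an alternative chosen after seeing the data. Which exons the probes match was not analysed here. For Nampt the ratio of its probes stayed between 2.74 and 9.09, but in set 1 the probes differed in direction for some samples. By the other probe OSKM iPS1 (234), ESC1 (278) and CiPS50 (296) lay below MEF1 (334). CiPS34, MNF CiPS7 and CiPS21 lay above it by both probes.

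**Figure D1:**
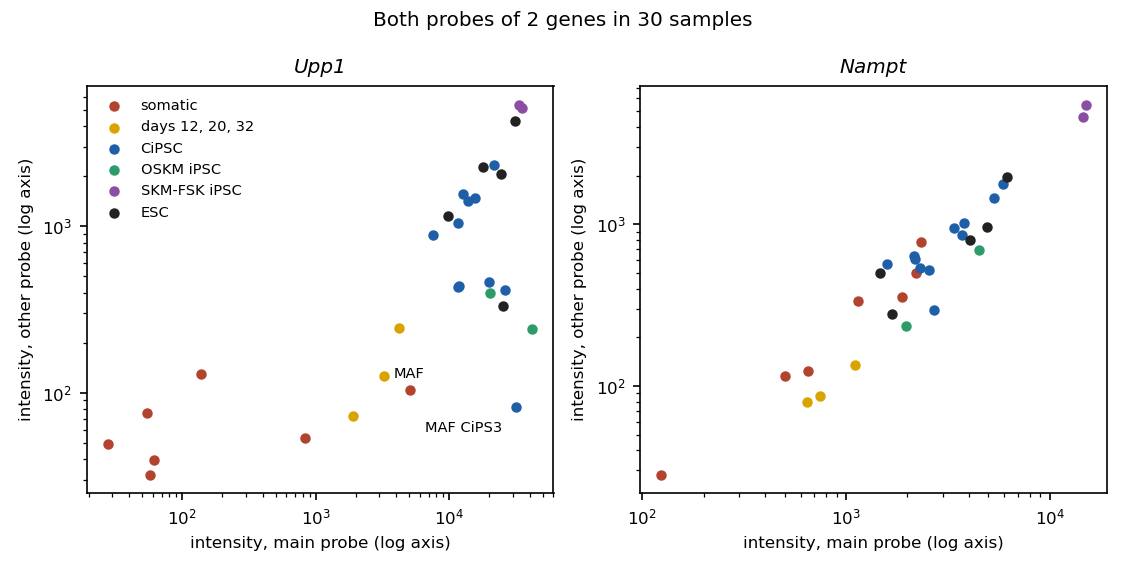
Intensity of the main probe (x, log axis) against the other probe (y, log axis) of Upp1 (left) and Nampt (right) in 30 samples, coloured by group. MAF CiPS3 lies at 31851 and 82.0 for Upp1, far off the other CiPSC lines, while the ratio of the Nampt probes stays between 2.74 and 9.09.

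Gldc (chromosome 19, 30098441 to 30175441) was higher in pluripotent cells but varied widely among them. Somatic cultures read 211 (MNF), 217 (WT MEF), 221 (MEF1), 250.4 (MAF), 282 (ADSC), 378 (MEF2) and 1586 (MEF3). The CiPSC lines ran from 993 (MNF CiPS1) through a median of 2454 to 7503 (MAF CiPS3). The ESC samples read 579, 3857, 2670, 5827 and 5498, the OSKM lines 1148 and 2703, and the SKM-FSK lines 3333 and 2991. Within each set no somatic sample reached a pluripotent one.

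The 4 CiPSC lines of set 1 lay 1.38 to 2.08 above ESC1 for Gldc, while MNF CiPS1 lay 1.96 below ESC2 and CiPS WT2 1.38 below ESC3. The 4 lines of set 1 themselves read 1504 to 2454, and ESC1, at 579, was the lowest of the ESC samples. The SD of the 11 differences was 1.33, larger than that of 95.3% of genes. This SD holds the spread of the ESC samples as well as that of the lines, since each line is set against 1 ESC sample. The CiPS WT1 and CiPS WT2 lines, labelled with the same source and mixture, read 2846 and 1026.

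Gcat (chromosome 15, 79030874 to 79042531) was higher in the pluripotent than in the somatic samples of sets 1 to 4. In those sets the somatic samples read 749 (WT MEF) to 3856 (MNF), the CiPSC lines 2239 (CiPS WT2) to 13506 (CiPS21), the ESC samples 11263, 4631, 1516 and 10394, the OSKM lines 10606 and 7758, and the SKM-FSK lines 12322 and 11054. In each of these sets every pluripotent sample was above every somatic one. In set 5 all 6 samples, ESC5 included, read between 56.6 and 102, under the sample medians of that set (109.5 to 110.04). The control line and ESC5 differed from MEF3 by -0.57 and -0.03.

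The SDs among CiPSC lines, relative to the ESC of the set, were 0.77 for Gcat, 0.63 for Nampt, 0.51 for Upp1 and 0.50 for Qprt (n = 11). The last 2 were below the median of all genes, 0.56.

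**Figure D2:**
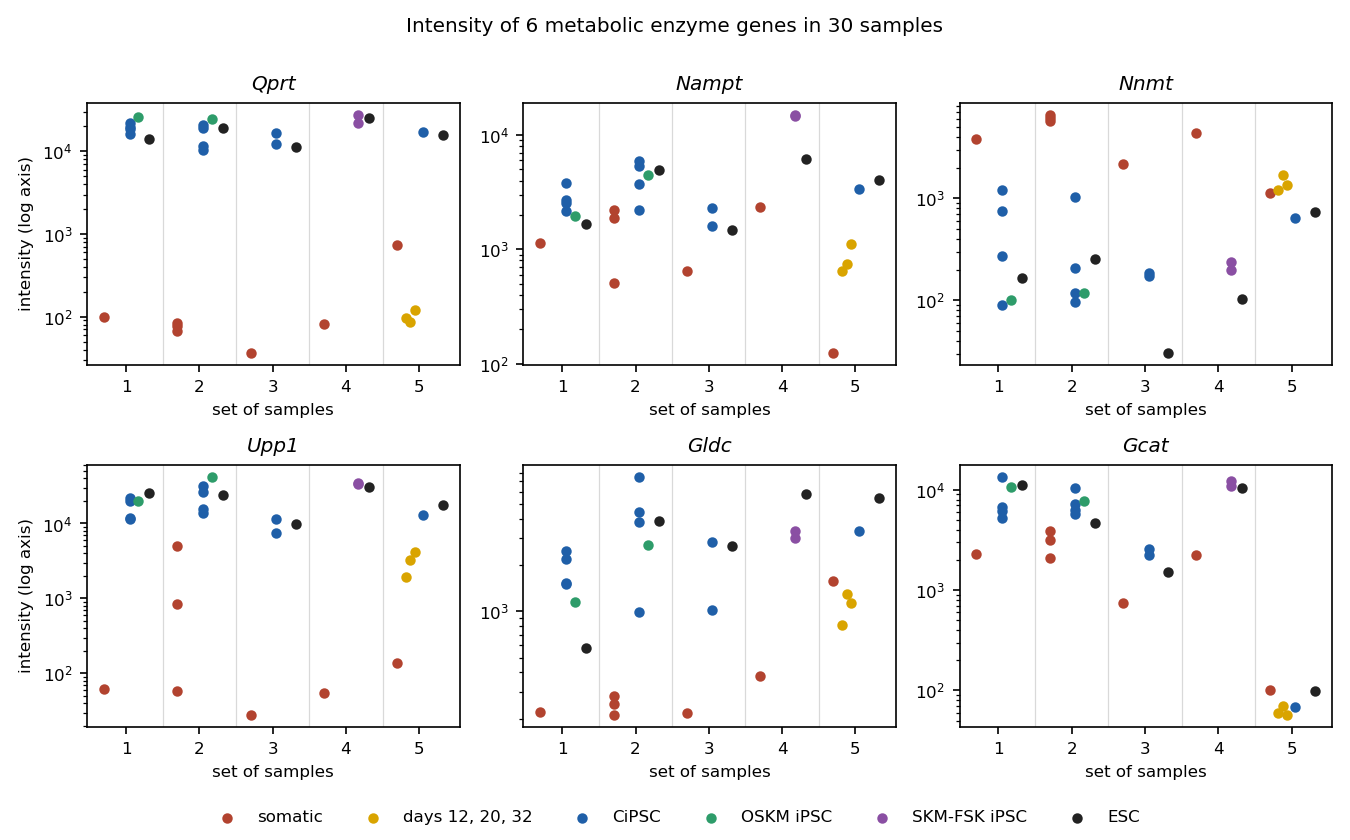
Intensity (y, log axis) of the 6 genes in 30 samples, by set (x) and coloured by group, 1 point per sample. Qprt separates somatic samples (36.2 to 741) from pluripotent ones (10312 to 27698), Nnmt runs the other way, and all set 5 samples of Gcat lie at or under 102.

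The first comparison set established CiPSC lines against somatic cultures. Beside Qprt and Upp1, the fitted differences were 3.25 ± 0.40 for Gldc, 2.01 ± 0.40 for Nampt, 1.24 ± 0.28 for Gcat and -3.69 ± 0.60 for Nnmt (SE; 11 and 7 samples). By the rule of an adjusted p under 0.05 and at least 2-fold, 5 of the 6 genes were higher and 1 lower, beside 14.6% and 13.1% of 16497 genes. The choice of the genes used this contrast, and nothing is read from the count. In ESC the values were 3.10 ± 0.47 for Gldc, 1.95 ± 0.46 for Nampt, 1.21 ± 0.33 for Gcat and -4.48 ± 0.70 for Nnmt. There too 5 were higher and 1 lower, beside 14.9% and 14.0% of 16509 genes. The 2 comparisons share the somatic samples.

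Without MEF3 the difference of Nampt was 1.55 for CiPSC and 1.39 for ESC, and that of Nnmt -4.21 and -5.13. Within sets, Nampt in CiPSC lay 1.25, 1.64 and 1.55 above the somatic samples in sets 1, 2 and 3 and 4.78 above MEF3 in set 5. The differences of Nnmt were -3.28, -4.80 and -3.60 in sets 1, 2 and 3 and -0.83 in set 5.

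In the factor-induced lines the 4 genes other than Qprt and Upp1 were tested. These lines are compared with the same somatic samples, and the whole list was chosen with earlier results of these data known. The p-values are therefore not an independent check. In OSKM iPSC (2 against 7 samples) Gldc rose by 2.93 ± 0.65 (SE; limma adjusted p = 0.00238) and Gcat by 1.59 ± 0.46 (limma adjusted p = 0.0144). Nnmt fell by 5.32 ± 0.98 on the log2 scale (limma adjusted p = 0.00045). Nampt, at 1.76 ± 0.65, missed the threshold (limma adjusted p = 0.0557). It passed without MEF3 (1.41, limma adjusted p = 0.0198), without MAF (1.96, 0.0356) and without ADSC (1.91, 0.0427). By the other probe of Nampt, OSKM iPS1 lay below MEF1, as given above. Counting Qprt and Upp1, 4 of 6 genes met the rule as higher and 1 as lower, beside 11.8% and 9.78% of 11406 genes. Qprt and Upp1 were chosen on their difference from these same somatic samples, so nothing is read from this count.

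In SKM-FSK iPSC (2 against 7 samples, with both groups in set 4 alone) Nampt rose by 2.94 ± 0.82 (SE; limma adjusted p = 0.0178), Gldc by 2.64 ± 0.82 (0.0331) and Gcat by 1.89 ± 0.57 (0.0289). Nnmt fell by 3.86 ± 1.24 on the log2 scale (limma adjusted p = 0.0385). Counting Qprt and Upp1, 5 of 6 genes met the rule as higher and 1 as lower, beside 7.09% and 7.74% of 16260 genes. Here too the choice of Qprt and Upp1 used these somatic samples, and nothing is read from the count. All 4 of the tested calls were lost without SKM-FSK1 (limma adjusted p 0.0952 to 0.161) and without SKM-FSK2 (0.103 to 0.18), where the remaining sample is assumed to vary like the other groups. Within set 4 the differences from MEF2 were 2.66 for Nampt, 3.06 for Gldc, 2.39 for Gcat and -4.32 for Nnmt.

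**Figure D3:**
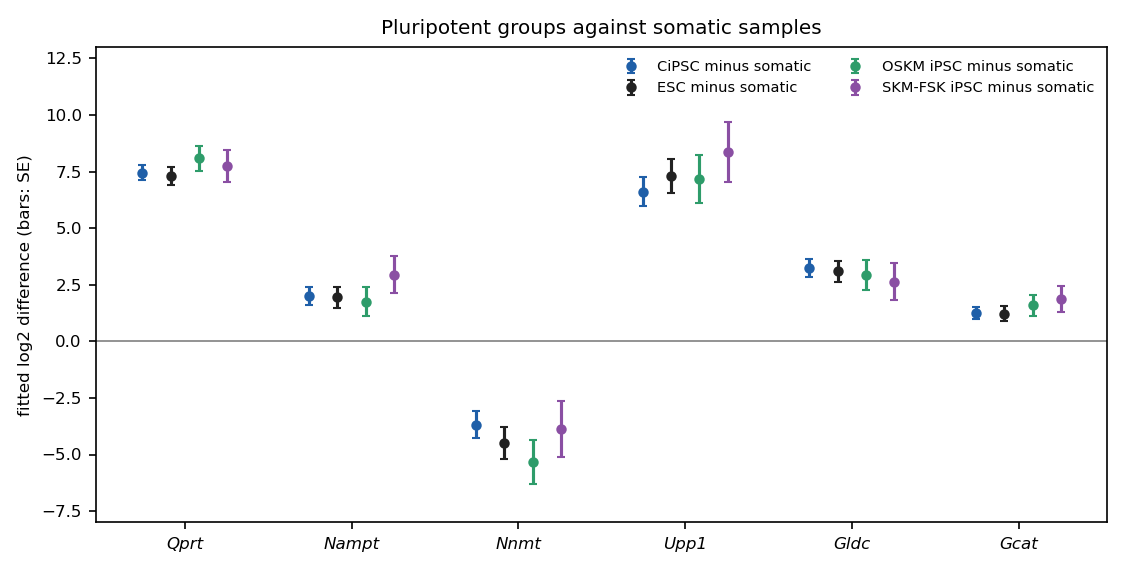
Fitted log2 difference from the 7 somatic samples (y; bars are the SE) for 6 genes (x) in CiPSC, ESC, OSKM iPSC and SKM-FSK iPSC. Qprt and Upp1 lie between 6.61 and 8.36, Gldc, Nampt and Gcat between 1.21 and 3.25, and Nnmt between -5.32 and -3.69.

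Whether CiPSC matched ESC was tested for the same 4 genes, with 11 and 5 samples. The fitted difference of CiPSC minus ESC was 0.15 for Gldc (95% interval -0.79 to 1.08), 0.03 for Gcat (-0.63 to 0.68), 0.05 for Nampt (-0.88 to 0.98) and 0.79 for Nnmt (-0.62 to 2.19). None passed limma's test and 0 of the 4 had an unadjusted p under 0.05. The intervals leave room for differences of about 2-fold in Gldc and Nampt and of over 4-fold in Nnmt. Of 16497 genes 5 were called higher (0.0303%) and 0 lower (0%), with 799 at an unadjusted p under 0.05. Without ESC2, the TT2 line, 49 genes were called, and without ESC1 or ESC3 none (0). Qprt and Upp1 differed by 0.15 ± 0.38 and -0.68 ± 0.73 (SE), given as a description.

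The treated MEF of set 5 gave each gene's level over time, with 1 sample per day and therefore no test. Qprt read 741 in MEF3, 97.1 at day 12, 86.6 at day 20 and 119 at day 32, and 17274 in the control line and 15754 in ESC5. The treated samples stayed below MEF3 on all 3 days, and the control line lay 7.18 above day 32 on the log2 scale. The difference of day 12 from MEF3, -2.93, goes with the high MEF3 value.

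Upp1 was already higher at day 12, at 1919 against 139 in MEF3, and then read 3229 at day 20 and 4213 at day 32, with 12774 in the control line and 17811 in ESC5. These are log2 differences from MEF3 of 3.79, 4.54 and 4.92 at the 3 days. By the other probe Upp1 read 130 in MEF3, 72.8 at day 12, 126 at day 20 and 245 at day 32, with 1555 in the control line, so that day 12 was 0.83 below MEF3. The early difference thus appeared by 1 of the 2 probes.

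Nampt read 124, 645, 743 and 1110.4 in MEF3 and at days 12, 20 and 32, with 3402 in the control line and 4079 in ESC5. Its differences from MEF3 were 2.38, 2.58 and 3.16 at the 3 days, and 1.50, 1.62 and 2.26 by its other probe. Nampt in MEF3 differed from ESC5 by -5.04, whereas the other 6 somatic samples differed from the ESC of their sets by -3.28 to -0.55.

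Nnmt read 1131 in MEF3, 1218 at day 12, 1685 at day 20 and 1352 at day 32, with 637 in the control line. Gldc read 1586, 809, 1289 and 1129 over the same samples, with 3357 in the control line and 5498 in ESC5. Both therefore stayed within 2-fold of MEF3 on all 3 days. Gcat read 59.2, 69.9 and 56.6 at the 3 days.

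Of the 6 genes, at least 2-fold, 2 were higher and 1 lower at day 12 against MEF3, beside 24.9% and 31.5% of 23609 genes. None passed 2-fold between days 12 and 20 (5.49% higher and 3.76% lower of all genes) or between days 20 and 32 (9.0% and 7.15%). From day 32 to the control line 4 were higher (Qprt, Upp1, Nampt and Gldc) and 1 lower (Nnmt), beside 21.1% and 19.4%. Qprt and Upp1 were chosen on their levels in such lines, so nothing is read from that count. Fibroblast markers (10 of 10 measured) summed to 45303 in MEF3, to 188892, 146621 and 128017 at the 3 days and to 1271 in the control line. At day 12, 8 of the 10 were at least 2-fold higher than in MEF3 and 1, Pdgfrb, was lower. Pdgfrb read 3803 in MEF3 and 2.83, 0.85 and 0.38 at the 3 days, and Pdgfra read 0.1 at day 20. Extraembryonic endoderm markers (7 of 7) summed to 4276 in MEF3, to 3385, 9909 and 23538 at the 3 days and to 1912 in the control line. Sox17 did not follow that sum. It read 241 in MEF3, 309, 353 and 222 at the 3 days and 1091 in the control line. Afp read at most 4.25 in set 5. Macrophage markers (5 of 6) summed to 6640 in MEF3, to 665, 661 and 2176 at the 3 days and to 2072 in the control line, and all 5 were at least 2-fold lower at day 12 than in MEF3. Cd68 alone read 2011 at day 32 and 1913 in the control line, and 3958.5 in ESC5. C1qa, C1qb, C1qc and Csf1r read 13.25 to 76.4 at day 32, so the higher sum there is that of Cd68. The part of such cells in these values was not tested.

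**Figure D4:**
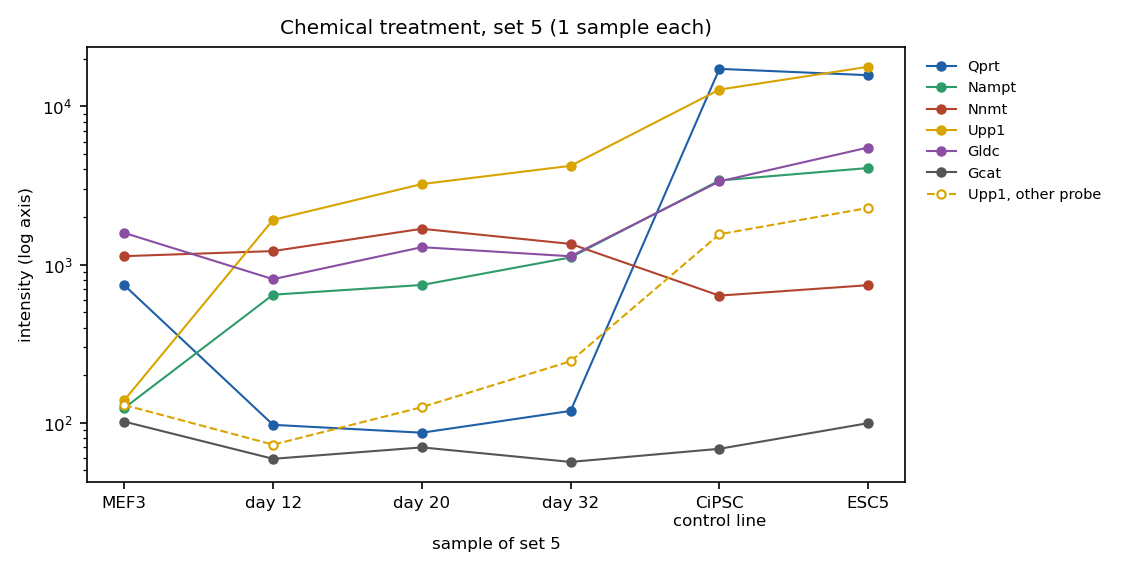
Intensity (y, log axis) of the 6 genes in the 6 samples of set 5 (x), 1 sample each, with the other probe of Upp1 as a dashed line. Qprt stays between 86.6 and 119 at days 12 to 32 and reads 17274 in the control line, whereas Upp1 reads 1919 at day 12 by its main probe and 72.8 by the other.

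The neighbouring reactions were followed with 90 other genes in 5 lists, of which 69 could be tested in CiPSC against somatic samples. Of these 21 rose and 8 fell, beside 14.6% higher and 13.1% lower of all genes. The median difference over the 69 was 0.34, beside -0.11 over all genes tested. The share that fell was near that of all genes. In ESC 18 rose and 7 fell of 69 (all genes 14.9% and 14.0%), in OSKM iPSC 10 and 3 of 52 (11.8% and 9.78%), and in SKM-FSK iPSC 9 and 7 of 69 (7.09% and 7.74%). Without MEF3 the SKM-FSK count of higher genes was 16, without either SKM-FSK sample it was 4 with 2 lower, and the OSKM count of lower genes was 5 without MEF3. Between CiPSC and ESC limma called 0 of 69, with 4 at an unadjusted p under 0.05.

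In NAD synthesis 2 of 13 genes tested rose and 1 fell in CiPSC, close to or under the 14.6% and 13.1% of all genes. Those that rose were Nmnat2 (1.62 ± 0.28, SE; limma adjusted p = 9.85e-05), an adenylyltransferase of the last step to NAD, and Nmrk1 (1.00 ± 0.21, 0.000622), the nicotinamide riboside kinase. Nmnat3, the mitochondrial adenylyltransferase, fell (-1.47 ± 0.30, 0.000938). Naprt, which salvages nicotinic acid, had a difference of -0.92 ± 0.36 that was under 2-fold (0.0497), and Ido1, the first step from tryptophan, of 0.95 ± 0.42 (0.0886). The list's median was 0.22. In ESC the call of Nmnat2 (1.29 ± 0.33) and of Nmnat3 (-2.07 ± 0.34) recurred, in OSKM iPSC limma called 0 of 9 with 0 at an unadjusted p under 0.05, and in SKM-FSK iPSC only Naprt was called, at -2.39 ± 0.75 (0.0349).

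Among enzymes that consume NAD or its precursors, 3 of 13 rose and 3 fell in CiPSC, beside 14.6% and 13.1% of all genes. Sirt1, the nuclear NAD-dependent deacetylase, rose by 3.31 ± 0.49 (limma adjusted p = 0.000801), Parp1 by 2.79 ± 0.27 (4.62e-08) and Parp2 by 1.78 ± 0.18 (1.25e-07), both of which build poly-ADP-ribose at DNA breaks. Aox1, an aldehyde oxidase that oxidises nicotinamide derivatives, fell (-1.89 ± 0.30, 3.08e-05), as did Nt5e, the surface nucleotidase CD73 (-1.55 ± 0.51, 0.0204), and Sirt2, the cytoplasmic deacetylase (-1.15 ± 0.23, 0.000401). Sirt7 (-0.93 ± 0.36, under 2-fold) and Sirt4 (0.75 ± 0.34) were not called. The list's median was 0.34. Parp1 and Parp2 were also called higher, and Aox1 and Sirt2 lower, in ESC, OSKM iPSC and SKM-FSK iPSC, all against the same somatic samples. Nt5e was called lower in ESC (-2.19 ± 0.60) and SKM-FSK iPSC (-3.76 ± 1.05).

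In pyrimidine metabolism 8 of 15 genes rose in CiPSC and 0 fell by limma (1 of 15 lower at an unadjusted p under 0.05), beside 14.6% and 13.1% of all genes, and the median was 1.15. The enzymes that make UMP anew were among those that rose: Cad, which carries the first 3 steps, by 1.84 ± 0.28 (limma adjusted p = 1.93e-05), Dhodh by 1.66 ± 0.16 (5.93e-08) and Umps by 1.73 ± 0.29 (5.49e-05). Dctd, the deoxycytidylate deaminase, rose by 1.79 ± 0.27 (1.48e-05). Uck2, the uridine-cytidine kinase, was called at 1.63 ± 0.23, Dut, the dUTP hydrolase, at 1.57 ± 0.29, Tk1, thymidine kinase, at 1.15 ± 0.40 and the nucleoside transporter Slc29a1 at 1.09 ± 0.29. The CTP synthases Ctps (0.24 ± 0.20) and Ctps2 (-0.37 ± 0.18) were not called. Tyms, the thymidylate synthase, had a difference of 2.26 ± 1.22 that missed the threshold (0.152), and Uckl1 of -0.72 ± 0.23 (0.0184) that was under 2-fold. In ESC 6 of 15 were called higher, in OSKM iPSC 3 of 14 and in SKM-FSK iPSC 3 of 15, with Dhodh in each.

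Around Gldc and Gcat, 4 of 13 glycine, serine and folate genes rose and 3 fell in CiPSC, beside 14.6% and 13.1% of all genes, with a median of 0.67. Shmt1, the cytosolic serine hydroxymethyltransferase (2.73 ± 0.20, limma adjusted p = 1.09e-09), and Mthfd1, a folate enzyme (2.41 ± 0.23, 3.28e-08), rose, as did Gnmt, glycine N-methyltransferase (1.52 ± 0.37, 0.00319), and Gcsh, the lipoyl carrier protein that works with Gldc (1.03 ± 0.36, 0.0297). The folate enzymes Aldh1l2 (-4.27 ± 0.53, 1.15e-05) and Mthfd2l (-2.44 ± 0.52, 0.00218) fell, and so did Tha1, threonine aldolase (-1.62 ± 0.52, 0.0379). Psph (0.72 ± 0.50), Mthfd1l (0.67 ± 0.27), Mthfd2 (0.67 ± 0.47) and Shmt2 (-0.09 ± 0.30) did not pass. Shmt1 and Mthfd1 were called higher in all 4 pluripotent groups, and Aldh1l2 lower in ESC (-4.79 ± 0.61) and SKM-FSK iPSC (-5.27 ± 0.98).

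Of 15 methionine cycle and polyamine genes 4 rose and 1 fell in CiPSC, beside 14.6% and 13.1% of all genes, with a median of 0.33. Cbs, cystathionine beta-synthase, rose by 2.64 ± 0.27 (limma adjusted p = 9.63e-08), Cth, cystathionine gamma-lyase, by 2.09 ± 0.61 (0.00931), Sms, spermine synthase, by 1.85 ± 0.53 (0.00794) and Ahcy, which clears S-adenosylhomocysteine, by 1.77 ± 0.25 (7.8e-06). Gamt, a methyltransferase of creatine synthesis, fell (-2.01 ± 0.34, 5.98e-05). Bhmt (1.47 ± 0.64) and Mat2b (0.87 ± 0.30, under 2-fold) were not called. Cbs and Ahcy were called higher and Gamt lower in all 4 pluripotent groups.

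**Figure D5:**
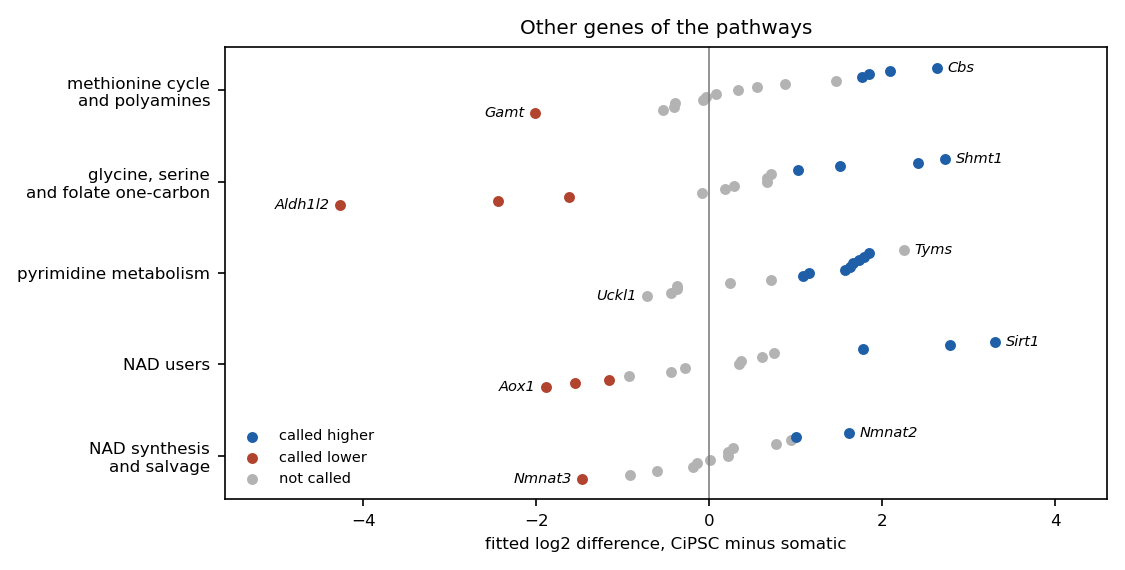
Fitted log2 difference of CiPSC minus somatic samples (x) for 69 other genes in 5 lists (y), 1 point per gene, with called genes in colour and the lowest and highest of each list named. The pyrimidine list has 8 called higher and none lower, and Aldh1l2 at -4.27 is the lowest point of the plot.

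The genes whose pattern was most like each of the 6, by Pearson correlation of log2 values centred on the mean of each set over 30 samples and 10298 genes, are a description without a test, since the samples share groups and sets. For Qprt they were Tdrd12 (0.98), Triml2 (0.98) and AU018091 (0.98), and for Upp1 Acp6 (0.94), 1700001L05Rik (0.94) and Kcnk5 (0.93). For Nampt they were Mrpl44 (0.94), Ptpn2 (0.94) and Hspa14 (0.94), for Gldc Mtf2 (0.94), Llgl2 (0.94) and Alg13 (0.94), and for Gcat Sptbn4 (0.92), Chchd10 (0.88) and Chchd4 (0.88). For Nnmt they were Tpm4 (0.90), Mgll (0.89) and Akt1 (0.88).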

How the data were processed

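Values are intensity on a linear scale, deposited by the authors as 1 column for each of 30 samples. The series' design text names 3 replicates behind a sample of sets 1, 2 and 4, and 2 behind one of sets 3 and 5; a column appears to be their average. The authors normalized the 5 sets separately, by a method not given in the sources used here, and different probes were kept in each. Whether replicates or samples of a group came from separate cultures is not stated, so p-values measure only the spread between these samples. Per the labels, total RNA was hybridised to a Phalanx whole-genome array.

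Of 26423 probes 21876 carried 1 gene in the platform annotation, 0 several and 4547 none, and the gene IDs of 21825 matched RefSeq on GRCm38.p6. Values were taken to log2, with the lowest positive intensity, 0.0001, as the floor. Of several probes of a gene the one measured in most samples, then the one with the highest mean, was used. Group and set were fitted to all 30 samples with limma 3.58.1 in R 4.3.3, with Benjamini-Hochberg adjustment over all genes tested. Calls required an adjusted p below 0.05 together with a 2-fold change. It needed 2 sets holding both groups (1 for SKM-FSK iPSC) and 3 residual degrees of freedom, so calls rest on genes measured that widely. Because set effects are estimated from all groups, a fitted value need not equal the within-set one. The fit was tested on simulated data. The number of arrays limits the precision.

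The genes described, the pathway and marker lists and the comparisons were chosen with earlier results of these data known. Named genes were the 6 measured enzymes; from each pathway list up to 4 called in CiPSC with the largest difference and up to 2 not called; and the 3 most alike for each enzyme. The other called genes of each list, Ctps, Ctps2, Mthfd2, Shmt2 and genes named in other comparisons were added after their values were seen. Alternatives covered quantile normalization, an offset or floor of 16, dropping the dimmest 25% of genes, averaging probes, a fit without set, sets holding both groups, each sample and set left out, a replicate block and the variance prior.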

Additional observations from a re-analysis of the deposited data

Results flagged for a closer look

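Of 24 groups of samples examined for a single value far from the rest, 2 held one, and chance alone gives about 1 in 20. Both were MEF3, set against ESC5 of its set and compared with the other 6 somatic samples set against theirs. For Qprt, MEF3 lay at -4.41 on the log2 scale and the nearest other somatic sample at -7.16, a gap of 0.707 of the whole range. For Nnmt, MEF3 lay at 0.61 and the nearest at 4.50, a gap of 0.701 of the range.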

How the results depend on the processing

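The fitted differences of the 6 genes kept their direction against somatic samples under the alternatives run, and the limits are the small groups, 1 ESC per set and probes read at low signal in set 5. With a replicate block on title numbers, Nampt passed in OSKM iPSC (adjusted p = 0.0425), Gcat was lost in SKM-FSK iPSC (adjusted p = 0.0568) and 1 gene was called between CiPSC and ESC. Deviations of samples with the same number correlated at -0.40 to 0.55 (number 1), -0.20 to 0.29 (2) and 0.16 to 0.38 (3). Not every pair was above 0.1, so the numbers are not taken to pair the samples.

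Without the set term, 11 pathway genes were called higher in ESC, 1617 genes in OSKM iPSC (2460 with it), 3918 genes in SKM-FSK iPSC (2412 with it) with 26 pathway genes higher and 2 lower, and 2 genes between CiPSC and ESC. Gldc (adjusted p = 0.0519) and Gcat (0.343) in OSKM iPSC and Gcat in SKM-FSK iPSC (0.17) then missed the threshold. The 5 genes called between CiPSC and ESC became 1 with only the sets holding both groups, 1, 28, 0 and 1 without sets 1, 2, 3 and 4, and 2 without CiPS WT1 and CiPS WT2, chosen after seeing the data. In SKM-FSK iPSC 4 pathway genes were lower without set 1 and 4 without set 3, and without set 5 there were 3772 genes called and 15 pathway genes higher. In OSKM iPSC 5 pathway genes were lower without set 5. In SKM-FSK iPSC Gcat and Nnmt were lost without set 1 or set 2, and Gldc and Nnmt without set 3. Nampt in OSKM iPSC passed with an offset of 16 (adjusted p = 0.0487) and without set 5 (0.0217). With day 12 in place of MEF3, Qprt at day 32 turned from -2.64 to 0.29, since day 12 itself differed from MEF3 by -2.93. Why the other results moved was not tested.

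Leaving out one sample at a time gave 0 to 49 genes between CiPSC and ESC (49 without ESC2, the TT2 line), 942 to 3759 in SKM-FSK iPSC (3759 without MEF3) with 4 to 16 pathway genes higher and 2 to 8 lower, and 3 to 5 pathway genes lower in OSKM iPSC.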
